A study of Mus musculus with 44 samples.

Results

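The genes described here are 45 mouse genes of cell division, of 17126 genes listed in the deposited tables and 16979 with a gene symbol. They were taken by symbol from textbook roles and not by their measured values, although earlier results of these data were known when they were chosen. All 45 were found: 14 genes of origin licensing, 5 of the replication fork, 3 of deoxynucleotide supply, 8 cyclins and cyclin-dependent kinases (CDKs), 11 mitotic genes and 4 genes of chromatin and proliferation.

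The study measured mRNA levels (RNA-seq), ribosome-protected fragments (RPFs, the pieces of mRNA that translating ribosomes shield from nuclease) and poly(A)-tail lengths in mouse brain tissue and cultured neurons, to ask how translational efficiency (TE) relates to tails, microRNAs and neuronal activation. All mice were C57BL/6J, and the tissues were hippocampi of embryos at E16, adult hippocampus from a male mouse and adult cortex from a male mouse, each with 1 library per method. Cultures came from cortices of newborn pups of both sexes, about 5 animals a sample, and all of them received 5 µM AraC, a nucleoside analogue that kills dividing cells, for 24 h from day 2. Visual cortex was taken from 4 mice kept in the dark for 1 week and 4 mice given 1 h of light afterwards, all 6 to 7 weeks old, and only its tail libraries are replicated.

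The cultures analysed at 14 days in vitro (DIV14) were unstimulated, or given BDNF (brain-derived neurotrophic factor) or glu/gly (glutamate and glycine) for 30 min. Those at DIV10 were unstimulated or given KCl for 10 min or 30 min. Another 3 cultures were infected with lentivirus at DIV5 and collected at DIV14. They carried either GFP alone or GFP and 1 miRNA, miR-1 in one and miR-155 in the next. In that virus the synapsin promoter, which is active in neurons, drove GFP and the miRNAs carried in its transcript. Per the study's methods, 6 culture samples were prepared in 2 batches of 3. Which cultures shared a batch was not given in the sources used here, so culture age or treatment and batch cannot be told apart, also where the GFP culture serves as a reference for another.

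A cell that is to divide first marks its replication origins: the origin recognition complex and Cdt1 load the Mcm2 to Mcm7 helicase onto DNA, and geminin (Gmnn) stops a second loading. Cyclins switch on their CDKs in turn, D-type cyclins with Cdk4 in G1, then cyclin A with Cdk2 in S phase and B-type cyclins with Cdk1 at mitosis. In the embryonic hippocampus, progenitors still divide to make neurons and glia, whereas neurons leave the cycle for good and division in the adult is limited to a few stem and precursor cells.

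Promoters of these genes carry known cell cycle elements, and short stretches of them are printed here because the role groups held the elements in different shares. The windows ran from 250 bases before to 50 after the annotated start (RefSeq, GRCm38.p6), and 38 of the 45 genes matched. Gmnn, Mcm4, Ccna2, Ccnd1, Ccnd2, Aurkb and Tpx2 had no match in the table. The cell cycle genes homology region (CHR, TTTGAA, on either strand) occurred in 12 of the 38 genes (31.6%). This compares with 15.2% for 13471 genes in the files and 17.9% of all 32851 windows. Among mitotic genes the CHR occurred in 6 of 9, and among origin licensing genes in 1 of 12. Some genes had more than 1 window and were counted once if any of them held the element. Shares of genes and of windows are therefore unlike measures. Capitals mark the element in 4 examples, picked after the matches were seen. The Cdk1 stretch lies at chr10:69352910-69352939 on the minus strand, Cdc20 at chr4:118437344-118437373 on the minus strand, Plk1 at chr7:122159453-122159482 on the plus strand and Aurka at chr2:172370521-172370550 on the minus strand.
Cdk1: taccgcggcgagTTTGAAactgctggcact
Cdc20: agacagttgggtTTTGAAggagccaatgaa
Plk1: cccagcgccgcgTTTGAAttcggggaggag
Aurka: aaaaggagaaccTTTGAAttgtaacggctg

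E2F-type letters (TTGGCGC, the variant TTCCCGC, the variant TTCGCGC and the variant TTGCCGC, on either strand, with overlapping matches counted once per window) showed the opposite split. They occurred in 20 of 38 genes (52.6%), against 17.0% for genes in the files. By role, they were in 8 of 12 origin licensing genes, 4 of 5 replication fork genes and 0 of 9 mitotic genes. In 4 examples the capitals mark the E2F-type letters, from Mcm6 (chr1:128359733-128359762, minus strand), Mcm5 (chr8:75109346-75109375, plus strand), Mcm7 (chr5:138171848-138171877, minus strand) and Pola1 (chrX:93632122-93632151, minus strand). The CCAAT box, read as CCAAT on either strand, was in 29 of 38 genes (76.3%) against 42.2%, and 8 of 9 mitotic genes held it. A match describes letters only, and no data of the study bear on binding there.
Mcm6: attggacgggtTTGGCGCgaagtagctcag
Mcm5: cgccaagaactTTCGCGCcaaaacgtccag
Mcm7: ggtgacgacgtTTCGCGCcaatttcggttg
Pola1: tttcaggctggTTGGCGCggaatagagaga

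RNA-seq libraries held 448022 to 7689624 reads on genes, RPF libraries 2812215 to 23212489, PAL-seq v2 libraries (tails of hippocampus and visual cortex) 86841 to 4812273 tags and TAIL-seq libraries (tails of cultures and adult cortex) 389654 to 1057812. Hippocampal RNA was poly(A)-selected, whereas that of 6 cultures and the adult cortex was depleted of rRNA. The hippocampal RPF libraries were uneven: of genes at 2 to 10 CPM (counts per 1000000 reads or tags on genes, the scale of all levels here unless RPM or RPKM is named) in RNA-seq, 15.7% in adult and 24.5% in embryonic hippocampus had 0 RPFs, against 0.569% in adult cortex, although the hippocampal libraries were deeper. Among cultures, the unstimulated DIV14 library stood apart from the other DIV14 cultures in these genes, so comparisons with it are also given against the others. Where a group is 1 library, a difference is the ratio of the 2 libraries' shares of reads on genes, with an exact 95% interval that covers counting error only, and it compares libraries, without a replicate check. A gene was called higher or lower when the ratio passed 2-fold, with counts under 3 raised to 3, and the interval lay clear of 1.

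The first comparison asked how the genes differ between a hippocampus that is still forming and a mature one. In RNA-seq, 39 of 45 genes were higher in embryonic hippocampus and 0 were lower, while 24% of 15103 genes were called higher and 21.1% lower. The median of the 45 ratios was 16.7-fold, a log2 ratio of 4.06 against 0.20 over all genes. By role, the median ratio was highest for chromatin genes (57.5-fold) and mitotic genes (48.9-fold) and lowest for the replication fork (4.80-fold), while single genes of a role differed widely. In bulk tissue, fewer cells of a type and less RNA per cell cannot be told apart.

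**Figure D1:**
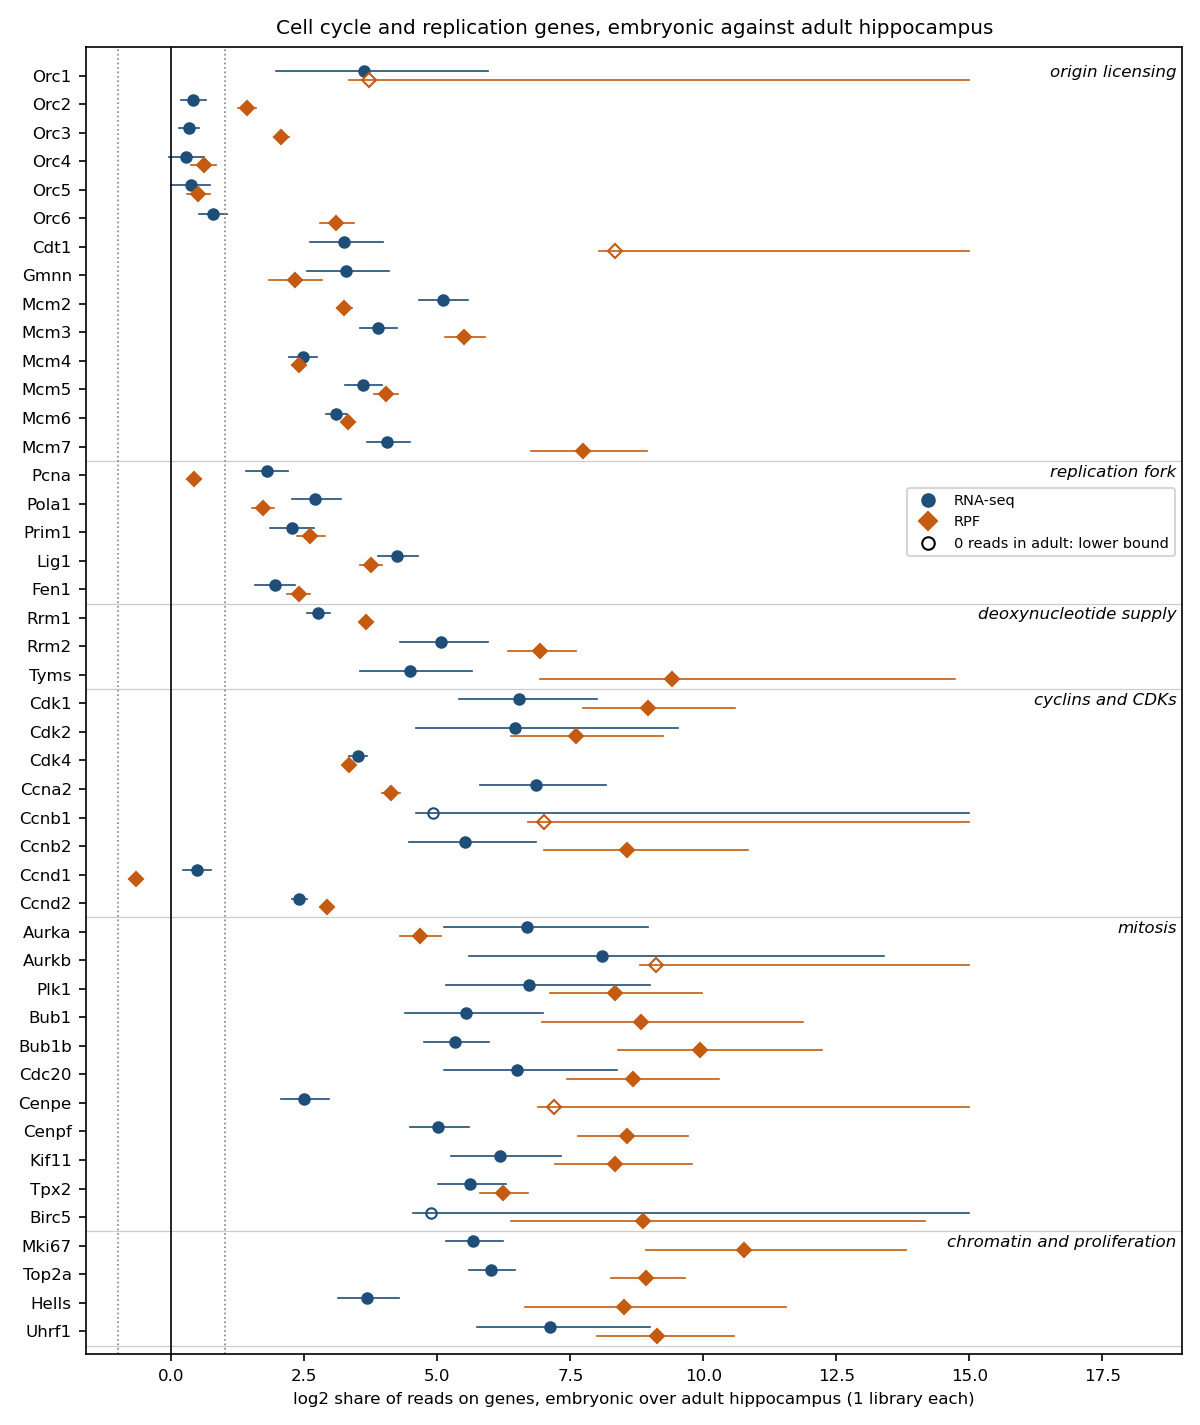
Log2 ratio of the share of reads on genes, embryonic over adult hippocampus, for the 45 genes by role (1 library each; circles RNA-seq, diamonds RPFs, bars exact 95% intervals of counting error, drawn to 15 at most). Open symbols are lower bounds with 0 adult reads, and dotted lines mark 2-fold. Most mitotic and chromatin genes and several cyclins and CDKs lie far to the right, Orc2 to Orc6 lie within 2-fold in RNA-seq, and Ccnd1 alone lies left of 0, in RPFs.

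Of the origin licensing genes, 9 of 14 were higher, with a median of 9.03-fold. Mcm6, a subunit of the replicative helicase, had 1973 reads in embryonic and 218 in adult hippocampus (257 and 29.9 CPM), an 8.57-fold ratio (7.45 to 9.90). Mcm2 had 1481 and 41 reads, 34.2-fold (25.1 to 47.9), and Mcm3 had 1163 and 75 reads, 14.7-fold (11.6 to 18.8). Helicase subunits of one complex thus differed from each other in their ratios beyond counting error. Mcm4 had the smallest ratio of the 6 at 5.54-fold, and Mcm5 and Mcm7 were at 12.1-fold and 16.7-fold.

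The origin recognition complex stood apart from the helicase it loads. Orc2 had 365 reads in embryonic and 261 in adult hippocampus (1.32-fold), Orc3 had 556 and 419 (1.26-fold), and Orc4 had 186 and 145 (1.21-fold). Orc5 had 148 and 109 reads (1.29-fold) and Orc6 had 342 and 189 (1.71-fold), so none of these 5 subunits was called. Orc1, the subunit whose level varies with the cell cycle in many mammalian cells, was the exception, with 39 and 3 reads, a ratio of 12.3 (3.91 to 62.3). Its loading partner Cdt1 and their inhibitor Gmnn were 9.51-fold and 9.69-fold higher, from 211 against 21 and 174 against 17 reads.

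All 5 replication fork genes were higher, with a median of 4.80-fold. Lig1, the ligase that joins Okazaki fragments, had 1223 and 61 reads (19-fold, 14.7 to 25). Fen1, the flap nuclease that trims those fragments, had 304 and 75 reads (3.84-fold, 2.97 to 5.01). Pola1, the catalytic subunit of the polymerase that starts new strands, had 324 and 47 reads (6.53-fold, 4.80 to 9.06). The sliding clamp Pcna, which also serves DNA repair, had the smallest ratio of the list at 3.47-fold (260 and 71 reads). The deoxynucleotide genes were all higher. Rrm1, the large subunit of ribonucleotide reductase, had 1534 and 214 reads (6.79-fold, 5.88 to 7.87), and Rrm2, its S phase subunit, had 494 and 14 (33.4-fold, 19.7 to 61.6). Both make one enzyme, and their intervals did not overlap. Tyms, which makes thymidylate, had 214 and 9 reads (22.5-fold, 11.6 to 49.9).

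Among cyclins and CDKs, 7 of 8 were higher. Cdk4, the partner of D-type cyclins, had 3709 reads in embryonic and 308 in adult hippocampus (11.4-fold, 10.1 to 12.8). Ccnd2 (cyclin D2; chr6:127125708-127151048) had 2592 and 465 reads, 5.28-fold (4.78 to 5.84). Ccna2 (cyclin A2) had 858 and 7 reads, 116-fold (56.1 to 289.5). The kinase of mitotic entry, Cdk1, had 590 and 6 reads (93.1-fold), and its cyclin Ccnb1 had 96 and 0, at least 30.3-fold higher. Ccnd1 (cyclin D1; chr7:144929931-144939831) was not called, with 300 and 204 reads (1.39-fold), so both D-type cyclins kept reads in the adult that the later cyclins did not.

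All 11 mitotic genes and all 4 chromatin genes were higher, with mitotic ratios from 5.64-fold (Cenpe, a kinetochore motor, 304 and 51 reads) upward. Tpx2, which directs spindle assembly, had 1137 and 22 reads (48.9-fold, 32.2 to 78.4), the checkpoint kinase gene Bub1b had 1060 and 25 (40.1-fold, 27.0 to 62.3), and the centromere gene Cenpf had 989 and 29 (32.3-fold, 22.3 to 48.5). Adult hippocampus held 0 reads of Birc5, the survivin gene, against 93 in the embryo, at least 29.3-fold. The largest ratio was that of Aurkb, a kinase of chromosome segregation, at 288 reads against 1, a ratio of 273 (48.6 to 10807). Top2a, the topoisomerase that untangles sister chromatids, had 3213 and 47 reads (64.7-fold, 48.6 to 88.3), Mki67, the proliferation antigen Ki-67, had 1672 and 31 (51.1-fold, 35.8 to 75.4), and Uhrf1, which maintains DNA methylation after replication, had 585 and 4 (138-fold, 53.8 to 509.9).

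Levels per transcript length ranked the genes differently from the ratios. By the RPKM values of the authors, embryonic hippocampus held most Cdk4 (258 RPKM) and Ccnd2 (190 RPKM), followed by Mcm6 (49.0) and Top2a (42.5). Adult hippocampus held most Ccnd2 (28.8), Cdk4 (18.1), Orc6 (13.0) and Ccnd1 (12.4), while Top2a was at 0.526 and Mki67 at 0.166 RPKM. The highest adult levels were therefore those of D-type cyclins, their kinase and an origin recognition subunit.

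**Figure D2:**
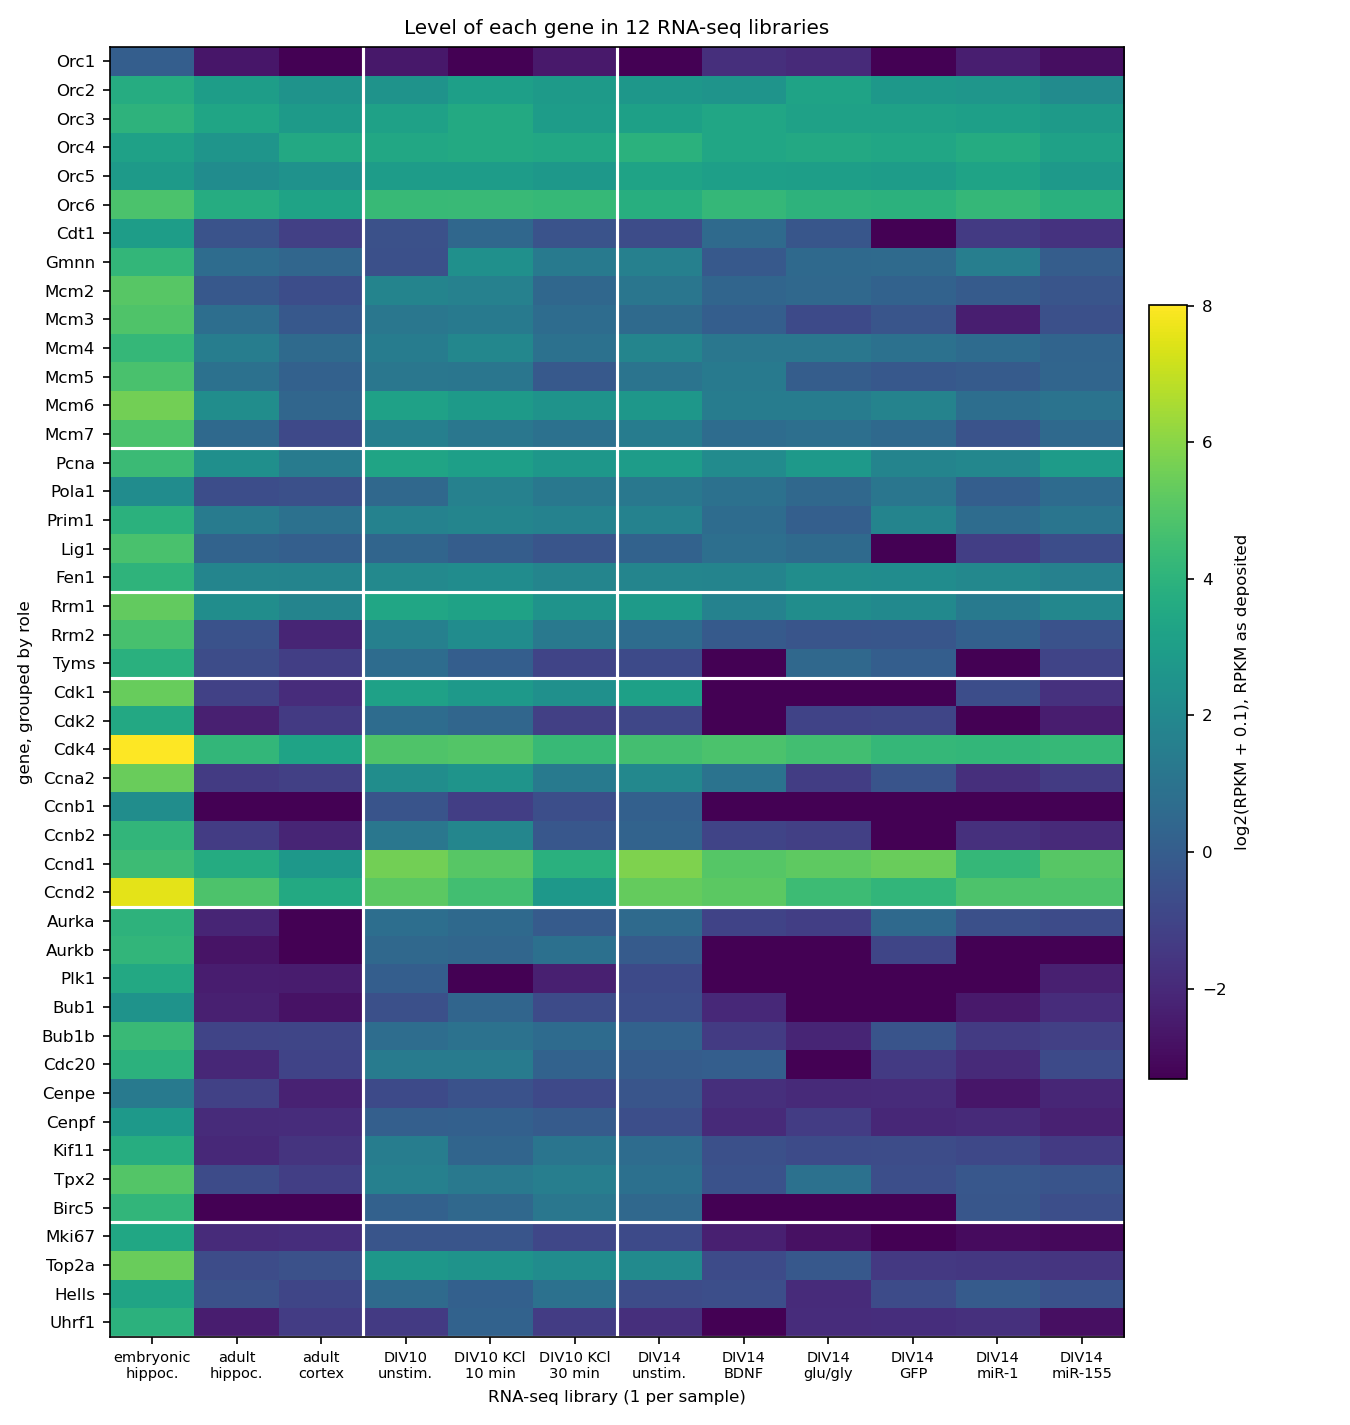
Level of each gene, as log2 of RPKM plus 0.1, in the 12 RNA-seq libraries (columns, 1 library each) with the 45 genes grouped by role. Embryonic hippocampus is the brightest column for most genes, though Orc1 is dim there too (0.946 RPKM), while Orc2 to Orc6, Cdk4, Ccnd1 and Ccnd2 keep visible levels in each of the other libraries and mitotic genes are dark in adult tissue.

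RPFs gave the same picture with wider ratios, 41 of 45 genes higher and 0 lower, against 32.5% and 30.2% of 13314 genes. Their median was 45.5-fold, a log2 ratio of 5.51 against 0.16 over all genes, and the mitotic median was 381-fold. Adult hippocampus had 0 RPFs for Cdt1, Aurkb, Cenpe, Ccnb1 and Orc1, against 1044, 1772, 472, 413 and 42 in the embryo. Cenpe had 51 RNA-seq reads in that same adult tissue, and the gaps in these libraries described above therefore touch such ratios of weakly expressed genes. Between well-covered genes, Mcm6 had 5727 and 533 RPFs (10.0-fold), Cdk4 had 10389 and 960 (10.1-fold) and Ccnd2 had 21196 and 2605 (7.59-fold). Orc2, Orc3 and Orc6, not called in RNA-seq, were higher in RPFs at 2.68-fold, 4.18-fold and 8.56-fold, whereas Orc4 (1.52-fold), Orc5 (1.42-fold) and Pcna (1.34-fold) were not called. Ccnd1 was the 1 gene with a lower share in the embryo, 898 RPFs against 1333, a log2 ratio of -0.67 that was not called.

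The tags of the PAL-seq v2 libraries, counted at mRNA 3′ ends, were fewer. Of 42 genes with a tag, 26 were higher in embryonic hippocampus and 0 lower, against 9.25% and 7.88% of 11669 genes. Cdk4 had 66 and 6 tags (28.1-fold) and Top2a had 34 tags and 1, a ratio of 86.9 (14.6 to 3531). Ccnd2, Orc1 and Hells had 0 tags in both libraries although Ccnd2 had 2592 and 465 RNA-seq reads there. In adult visual cortex, Ccnd2 had 1 to 8 tags a library. The cause of the low tag counts was not tested. Scaling by the median ratio of well-covered genes instead of total reads would lower every log2 ratio of this tissue comparison by 0.25 in RNA-seq, 0.28 in RPFs and 0.63 in tags.

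Other genes of the same pathways moved alike in RNA-seq, where 24% of all genes were called higher and 21.1% lower. These further lists were also chosen with earlier results of these data known, so they are not an independent check. Of 30 further replication genes, 28 were higher and 0 lower (median 5.76-fold), and of 34 further mitotic genes 31 were higher and 0 lower (29.2-fold). Of 18 regulators of G1 and S phase, CDK inhibitors included, 12 were higher and 1 lower (3.39-fold). Cell type markers moved with the comparison. Summed RNA-seq levels of 10 neural progenitor markers were 4471 CPM in embryonic and 158 in adult hippocampus, endothelial markers were at 213 and 48.6, astrocyte markers at 877 and 3369, oligodendrocyte markers at 25.9 and 1315 and neuron markers at 3690 and 7462. Their part in the result was not tested. All 5 hippocampus markers were detected, summing to 1191 and 807 CPM against 295 in adult cortex.

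The adult cortex and adult hippocampus were set side by side by their RPFs, since their RNA-seq libraries differ in preparation. In RPFs, 24 of the 45 genes were higher in cortex and 2 were lower, against 24.7% and 10.1% of 15059 genes, with a median log2 ratio of 1.92 against 0.18. Top2a had 59 RPFs in cortex and 19 in hippocampus (8.97-fold, 5.27 to 15.9), Mcm7 had 39 and 8 (14.1-fold), and Orc4 had 327 and 233 (4.05-fold). The exceptions were Mcm2, with 79 and 475 RPFs (2.08-fold lower), and Ccna2, with 12 and 278 (8.02-fold lower). RNA-seq, a comparison added after the data had been seen, did not show this difference: 2 genes were higher (Orc4 and Uhrf1) and 1 lower (Mcm6), against 9.49% and 7.36% of genes, and the median log2 ratio was 0.07. The 11 mitotic genes summed to 24.6 CPM in cortex and 21.0 CPM in hippocampus by RNA-seq, but to 25.3 and 6.3 CPM by RPFs. The difference was thus seen in RPFs and not in RNA-seq. The hippocampal RPF library had the gaps described above, and the RNA-seq libraries differed in preparation. The part of either was not tested.

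In cultures, the genes were compared between ages and treatments and with adult cortex, the tissue the neurons were taken to stand for. Summed over the 45 genes, RNA-seq levels were 1640 to 1885 CPM at DIV10, 1533 in the unstimulated DIV14 culture, 770 to 1076 in the other DIV14 cultures and 512 in adult cortex. The mitotic genes summed to 219, 177 and 250 CPM at DIV10 (unstimulated, KCl 10 min and KCl 30 min), to 134 in the unstimulated DIV14 culture, and to 41.7 with BDNF, 43.2 with glu/gly and, of the virus-infected cultures, to 53.6 for GFP, 32.0 for miR-1 and 40.7 for miR-155. The unstimulated DIV14 culture therefore lay between the DIV10 cultures and the remaining DIV14 cultures, in RPFs too (67.8 against 25.4 to 30.9 CPM). Progenitor markers followed the same order, at 3549 to 4026 CPM at DIV10, 2229 in the unstimulated DIV14 culture and 966 to 1491 in the other DIV14 cultures. Microglia markers were also higher at DIV10, at 67.2 to 107 CPM against 26.8 to 64.6 over all DIV14 cultures. Ranges of the other cell type lists overlapped between ages, with endothelial markers at 28.6 to 68.8 CPM at DIV10 and 5.16 to 37.3 at DIV14. The part of these cell types in the results that follow was not tested.

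**Figure D3:**
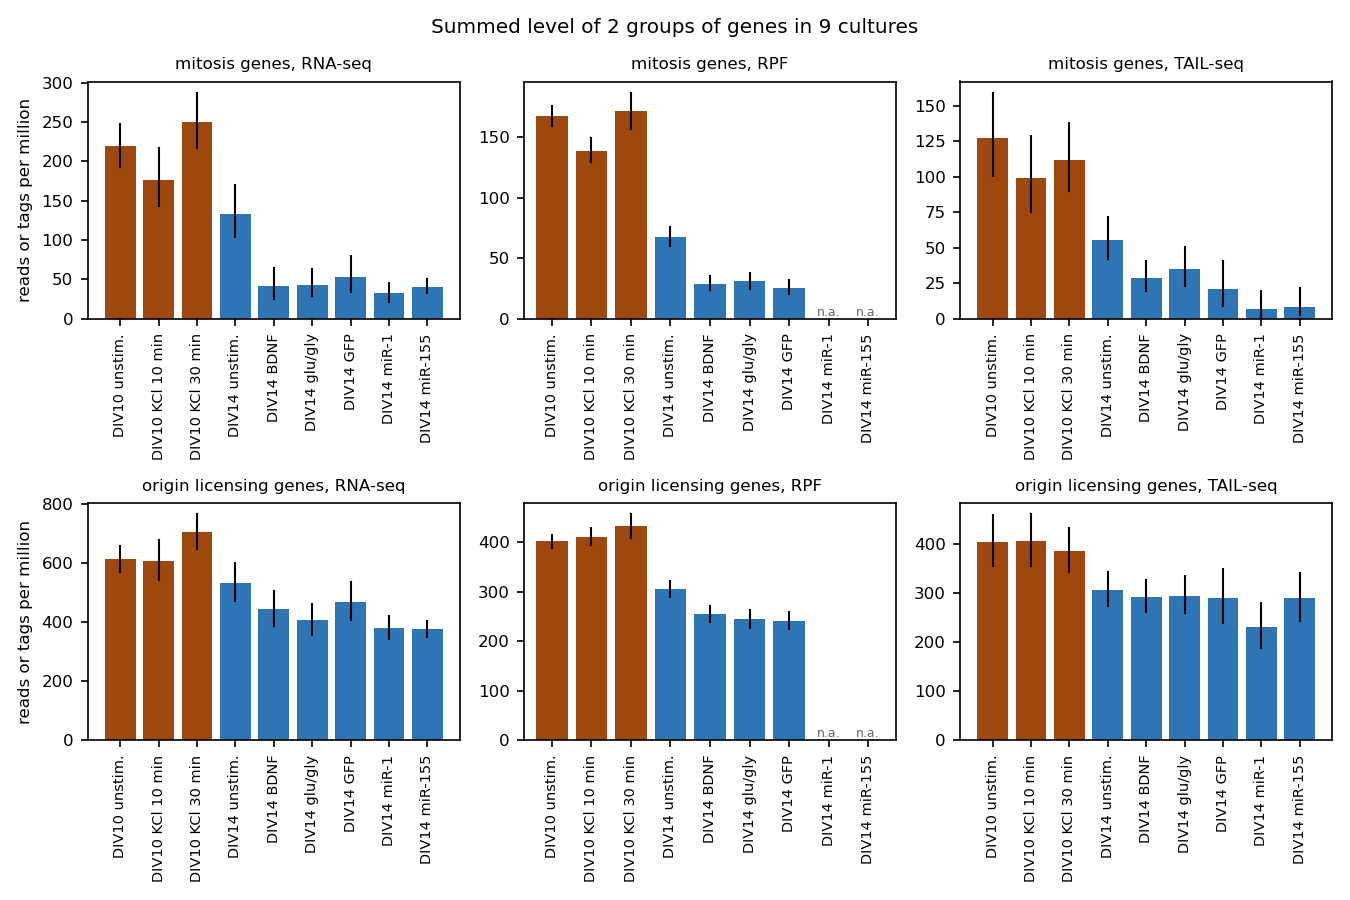
Summed level, in CPM, of the 11 mitotic genes and the 14 origin licensing genes in 9 cultures (brown DIV10, blue DIV14, 1 library each) by RNA-seq, RPFs and TAIL-seq tags, with bars for the 95% Poisson interval (n.a., not analysed here). Mitotic sums fall from 219 in the unstimulated DIV10 culture to 134 in the unstimulated DIV14 culture and 32.0 to 53.6 in the other DIV14 cultures by RNA-seq, while origin licensing sums span a narrower range.

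Adult cortex held less of these genes than the unstimulated DIV14 culture. In RNA-seq, 0 genes were higher and 22 lower in cortex, against 10.4% and 15.3% of 14446 genes, with a median of 2.99-fold lower. Scaling by the median ratio would raise each log2 ratio by 0.42, and 17 genes would then be lower. Ccnd1 had 39 reads in cortex and 112 in the culture (9.65-fold lower, 6.65 to 14.3), Ccnd2 had 68 and 79 (3.90-fold lower), and Cdk1 had 1 and 17, a ratio of 57.1 (8.95 to 2387) in favour of the culture. In RPFs, 0 genes were higher and 20 lower, against 10.6% and 10.8% of genes. The count was smaller against the other cultures. Against the BDNF, glu/gly and GFP cultures, a comparison added after the data had been seen, 9, 7 and 8 genes were lower in RNA-seq (12.5%, 10.5% and 13% of all genes) and 3, 5 and 4 in RPFs (8.92%, 9.33% and 8.38%). Higher in cortex were 0, 0 and 0 genes in RNA-seq (9.47%, 8.69% and 9.96%) and 1, 3 and 2 in RPFs (11.7%, 11% and 11.2%), so the RPF calls went both ways. Gmnn was higher against all 3 cultures (50 RPFs against 8, 3 and 3), joined by Orc2 and Prim1 against glu/gly and by Bub1b against GFP.

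Both D-type cyclins and Cenpe, a kinetochore motor, were lower in adult cortex against each of the 4 DIV14 cultures with RPFs. No share of all genes lower against every one of these cultures was taken. Against the BDNF, glu/gly and GFP cultures, the RPF counts of lower genes lay near the shares of all genes (8.92%, 9.33% and 8.38%). The values therefore describe these single genes and not the set. Ccnd1 was at 64.9 CPM of RPFs in cortex and at 371, 222, 278 and 329 in the unstimulated, BDNF, glu/gly and GFP cultures, 3.42-fold to 5.71-fold lower in cortex. Ccnd2 was at 82.9 CPM of RPFs in cortex and at 341, 281, 321 and 370 in those cultures, 3.39-fold to 4.46-fold lower. Cenpe rested on few reads, 9 RPFs in cortex and 24, 15, 10 and 13 in the unstimulated, BDNF, glu/gly and GFP cultures (2.96-fold to 4.61-fold lower).

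The unstimulated DIV10 culture differed from the unstimulated DIV14 culture in RPF calls only, and from the BDNF, glu/gly and GFP cultures in both RPFs and RNA-seq. Against the unstimulated DIV14 culture, 17 genes were higher at DIV10 in RPFs and 0 lower, against 7.51% and 3.97% of 15157 genes, with a median of 1.89-fold. Top2a had 848 RPFs at DIV10 and 118 at DIV14 (89.5 and 27.2 CPM, 3.29-fold, 2.71 to 4.02), Cenpf had 326 and 41 (3.64-fold), Bub1b had 152 and 21 (3.31-fold) and Mki67 had 260 and 50 (2.38-fold). In RNA-seq, 0 genes were higher and 0 lower, against 4.06% and 2.04%, at depths of 1191140 and 508771 reads on genes. Against the BDNF, glu/gly and GFP cultures, comparisons added later, 31, 30 and 33 genes were higher at DIV10 in RPFs (12%, 10.9% and 11.9% of all genes) and 12, 18 and 14 in RNA-seq (6.1%, 6.68% and 6.91%).

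Stimulated DIV14 cultures held less of the genes than their unstimulated control, but so did the unstimulated GFP culture. With BDNF, 0 genes were higher and 7 lower in RNA-seq, against 0.886% and 1.33% of genes. They were Mcm6 (14 and 36 reads, 2.42-fold lower), Rrm1 (16 and 39, 2.30-fold lower), Cdk1, Cenpe, Cenpf, Mki67 and Top2a. Top2a had 5 reads with BDNF and 45 without (8.48-fold lower, 3.38 to 27.4), and Cdk1 had 0 and 17, at least 5.34-fold lower. With glu/gly, 0 were higher and 8 lower, against 1.7% and 1.82%, namely Mcm6, Cdk1, Ccna2, Ccnd2, Bub1b, Cenpe, Mki67 and Top2a, the last with 9 reads (5.91-fold lower). In RPFs, 0 genes were higher and 14 lower with BDNF (0.663% and 2.52% of all genes), and 0 higher and 15 lower with glu/gly (0.734% and 1.91%). In TAIL-seq tags, 0 were higher and 5 lower with BDNF (Rrm2, Cdk1, Ccna2, Aurka and Cenpe; 0.699% and 1.37%), and 0 higher and 3 lower with glu/gly (Orc5, Cdk2 and Ccna2; 0.696% and 0.973%). The GFP culture, which received no stimulus, had 3 reads of Top2a and 0 of Cdk1 in RNA-seq and 20 and 10 RPFs, against 118 and 53 RPFs in the unstimulated control, and 15 genes were lower there in RPFs (3.66%) and 5 in RNA-seq (Lig1, Cdk1, Ccna2, Mki67 and Top2a; 2.11%). With the GFP culture as the reference, a choice made after seeing the data, BDNF gave 1 gene higher (Lig1, 10 and 0 reads; 1.76% of all genes) and 0 lower, and glu/gly gave 1 higher (Lig1; 2.25%) and 1 lower (Prim1; 1.53%). The differences thus rest on the single control library, and what set it apart was not tested.

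KCl depolarisation of DIV10 cultures left most of the genes uncalled. After 10 min, 2 genes were higher in RNA-seq (0.697% of all genes) and 1 lower (1.06%): Gmnn had 7 and 2 reads (a ratio of 7.85, 1.5 to 77.5), Pola1 had 32 and 35 reads (2.05-fold, 1.23 to 3.41), and the spindle motor gene Kif11 had 9 and 51 (2.53-fold lower). After 30 min, Gmnn (8 and 2 reads, a ratio of 5.93) and Pola1 (57 and 35, 2.42-fold, 1.56 to 3.79) were again higher, against 1.85% of genes, and both times share the control library. Both D-type cyclins were lower, against 4.97% of genes, Ccnd1 with 70 and 250 reads (2.41-fold lower, 1.84 to 3.19) and Ccnd2 with 31 and 178 (3.87-fold lower, 2.63 to 5.87). This count of lower genes lay near the share of all genes, so the values describe these single genes and not the set. RPFs of both cyclins fell short of the call, with Ccnd1 at 365, 336 and 237 CPM in unstimulated, 10 min and 30 min cultures and Ccnd2 at 434, 367 and 359. TAIL-seq tags gave 0 genes in either direction at either time (1.05% to 1.73% of all genes), and RPFs gave 0 higher at either time (1.59% and 1.48%), 2 lower at 10 min (Orc1 and Mki67; 5.04%) and 0 lower at 30 min (4.21%).

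In infected cultures, 3 of the genes were lower with miR-1 than with GFP in RNA-seq (2.64% of all genes) and 0 were higher (1.03%): Mcm6 (17 and 19 reads, 2.42-fold lower), Pola1 (18 and 22, 2.64-fold lower) and Ccnd1. Ccnd1 had 67 reads with miR-1 and 87 with GFP, 69.2 and 194 CPM (2.81-fold lower, 2.02 to 3.92). It was also the 1 gene lower in TAIL-seq tags (2.12% of all genes), with 43 and 93 tags (2.48-fold lower, 1.71 to 3.65). With miR-155, 0 genes were called in either direction in RNA-seq (0.889% higher and 1.9% lower of all genes) or tags (1.06% and 1.73%). Against miR-155 instead of GFP, a reference chosen after seeing the data, Ccnd1 was lower with miR-1 in RNA-seq (2.21-fold, 1.70 to 2.92). Mcm3, Mcm7 and Pcna were lower beside it (2.03% of all genes), and no gene was lower in tags (1.49%).

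TE, the log2 ratio of RPFs to RNA-seq reads, both as the RPM of the authors (reads scaled to library size), could be given for 41 of the genes in embryonic hippocampus, where both values rest on enough RNA (10 RPM or more). Of these, 31 lay above the median of the 7443 genes with a TE, and the median of the 41 was 0.90 against 0.67. Ccnd2 had the highest TE at 2.22 (2.16 to 2.28), above 98.9% of genes, followed by Aurkb at 1.81 and Uhrf1 at 1.80. Gmnn had the lowest at -0.48 (-0.77 to -0.18), above 16.6% of genes, followed by Cenpe at -0.18 and Mcm7 at 0.08. Members of one machine thus differed beyond counting error, with Mcm4 at 1.19 and Mcm7 at 0.08 in the helicase. These intervals are counting error within 1 sample and do not cover the unevenness of this RPF library. Among genes at 10 to 50 CPM in RNA-seq, the log2 ratio of RPFs to RNA-seq had an SD of 1.99 here. In adult cortex that SD was 1.00. How far this moved single TE values was not tested.

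**Figure D4:**
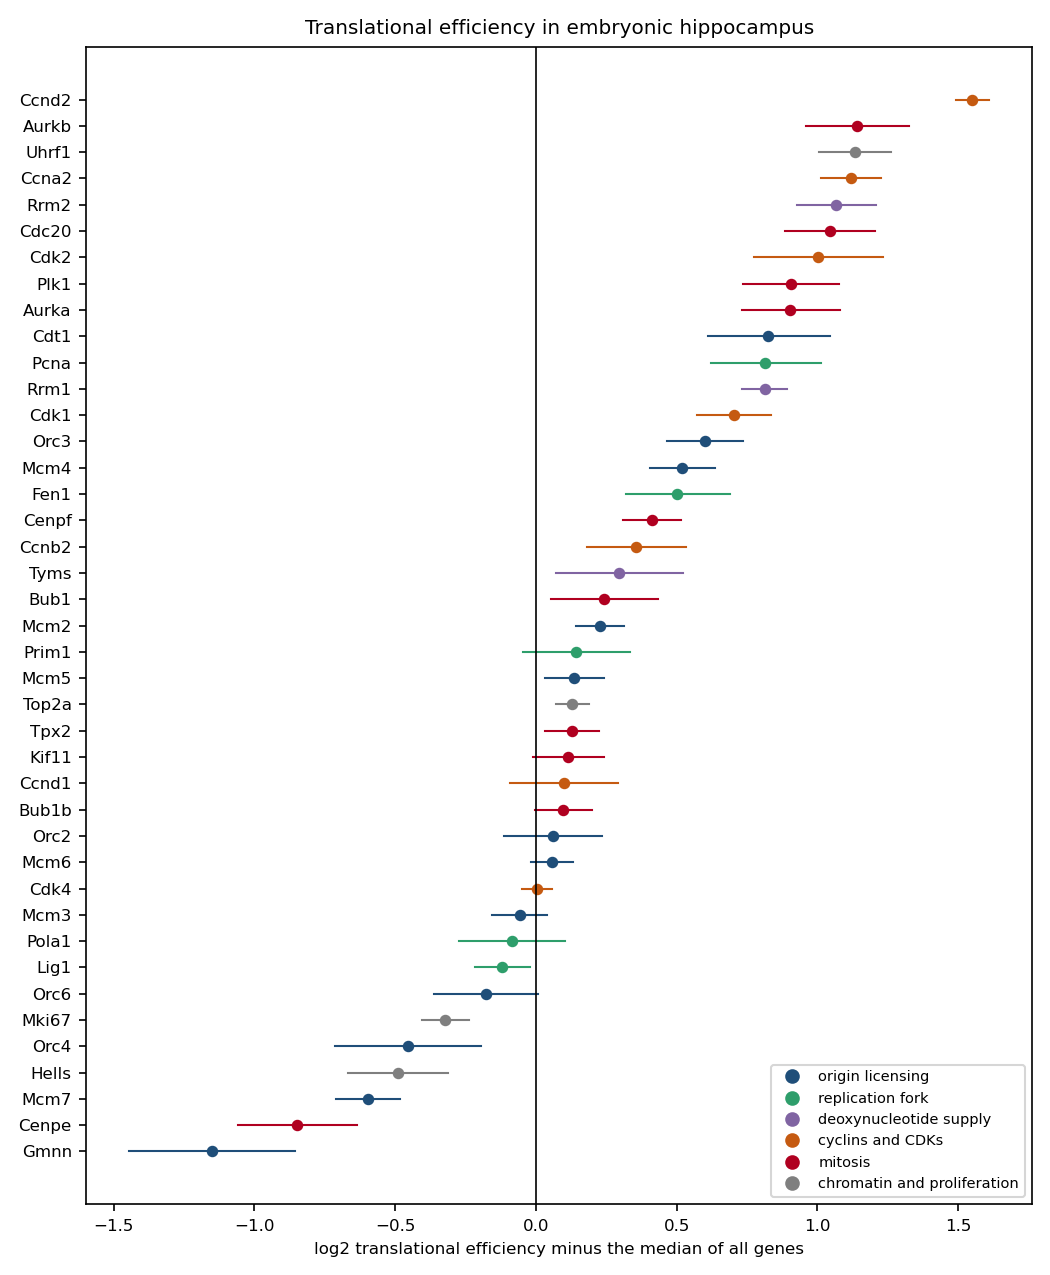
TE in embryonic hippocampus minus the median of 7443 genes (log2, 1 sample) for 41 genes, ordered and coloured by role, with bars for the exact 95% interval of counting error. Of the 41 points, 31 lie above 0, with Ccnd2 highest and Gmnn lowest.

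Ccnd2 kept a high TE wherever it could be given. In 8 samples its TE lay 1.10 to 2.78 above the sample's median, higher than 91.0% to 99.2% of genes, from adult hippocampus (1.97, with 465 RNA-seq reads and 2605 RPFs) to the GFP culture (4.04, with 35 and 1092). Ccnd1 lay 0.10 to 2.03 above the median in 9 samples, lowest in embryonic hippocampus. Orc2 showed the reverse, at 1.88% to 52.7% of genes in 7 samples, highest in embryonic hippocampus. Between embryonic and adult hippocampus, 7 of the genes could be compared. Given as embryonic minus adult, the difference in TE was highest for Orc3 at 1.46 (1.27 in the embryo and -0.19 in the adult; above 96.2% of 5431 genes, whose median difference was -0.22). Ccnd1 lay at the other end with -1.42 (0.77 in the embryo and 2.20 in the adult; above 7.64% of genes), and Cdk4 and Ccnd2 were at -0.45 and 0.25. There was no replicate for these differences, which had an SD of 1.01 over all genes. They also rest on the 2 uneven hippocampal RPF libraries, whose part in them was not tested.

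Tail lengths could be read for few of the genes, because a mean was used only from 50 tags. Ccnd1 had long tails in culture. Its mean tail was 142 nt in the unstimulated DIV14 culture (310 tags), 137 nt with BDNF, 137 nt with glu/gly, 141 nt with GFP and 134 nt with miR-155, and 146, 137 and 149 nt in the DIV10 cultures (unstimulated, KCl 10 min and 30 min). Each value lay 26.4 to 43.0 nt above the median gene of its library, longer than 97.8% to 99.9% of genes. In visual cortex, Ccnd1 stood at 85.2 to 96.6 nt in 3 libraries with enough tags, -1.21 to 3.59 nt from the median gene. The methods differ (TAIL-seq and PAL-seq v2), so tissue and method cannot be told apart. Other Ccnd1 readings lay below the minimum of tags. In adult cortex, measured by TAIL-seq, 36 tags averaged 135 nt, where the median gene was at 99.5 nt. In adult hippocampus, measured by PAL-seq v2, 11 tags had a median of 94 nt, where the median gene was at 54 nt. With miR-1, 43 tags averaged 104 nt, where the median gene was at 100 nt.

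Cdk4 tails also lay above the median gene where they could be read, by 15 and 25.1 nt in 2 cultures, 40 nt in embryonic hippocampus (a median tail of 104 nt over 66 tags) and 11 nt in 1 visual cortex library. Origin recognition genes had short tails in culture, Orc6 at -24.5 to -5.23 nt from the median gene in 5 cultures and Orc4 at -16.8 and -11.3 nt in 2, whereas in visual cortex Orc6 ran from -6.61 to 9.29 nt over 8 libraries. Mcm4 was the shortest reading, 57.9 nt and -32.7 nt from the median gene in replicate 2 of the dark mice. Ccnd2, with 31 to 271 RNA-seq reads per culture, had only 3 to 10 TAIL-seq tags per culture and no usable tail.

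In visual cortex, where light after darkness drives activity-dependent genes, 4 dark and 4 light mice allowed a test. By edgeR's quasi-likelihood test on tags, 14 of the 45 genes were tested, and 0 were higher and 1 lower after 1 h of light, against 1.21% and 0.126% of 9554 genes. The median log2 change of the 14 was 0.03. The gene was Orc5 (chr5:22486480-22550338), an origin recognition subunit, with 35.6, 28.5, 28.1 and 26.6 CPM in the dark mice and 15.4, 19.2, 14.8 and 13.7 in the light mice. The groups did not overlap, but neither did those of Mcm4, which was not called, and no share of all genes without overlap was taken. The Orc5 means were 29.7 ± 4.01 and 15.8 ± 2.37 (SD, n = 4 each). The log2 change was -0.88 ± 0.21 (SE), with an adjusted p of 0.0271 by edgeR, from 33 to 137 tags in the dark and 19 to 30 in the light. This call was lost in 6 of 8 fits without 1 mouse, those without dark replicate 1, 2 or 3 or without light replicate 1, 3 or 4, and edgeR's adjusted p ran from 0.0294 to 0.123 over the 8, while the log2 change stayed between -0.79 and -0.98. Mcm4 (12.0 ± 1.23 to 6.96 ± 1.11 CPM, SD) and Lig1 (17.7 ± 3.35 to 11.9 ± 2.87) had the next lowest p but were not called, at edgeR adjusted p of 0.384 and 0.517. Cdk4 and Ccnd1, described above in development and culture, were at 23.4 ± 5.0 and 27.5 ± 2.54, and at 29.3 ± 4.87 and 32.8 ± 4.61, and were not called.

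**Figure D5:**
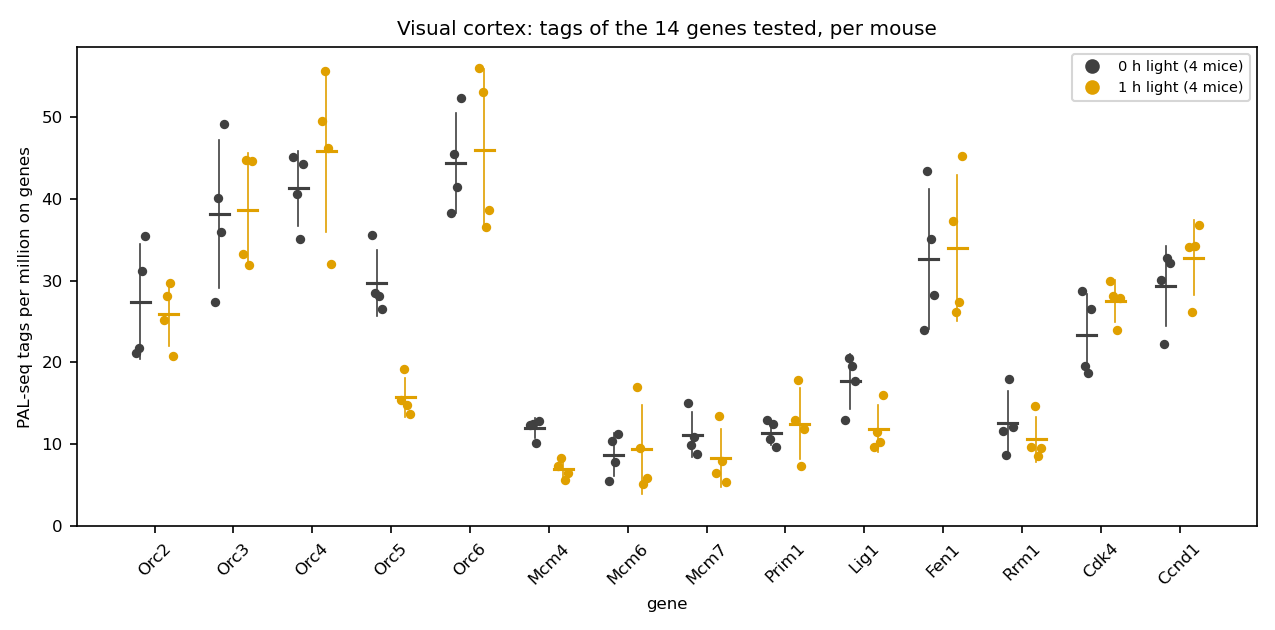
Tag level in CPM in visual cortex for the 14 genes tested, with 1 point per mouse (dark and 1 h of light, 4 each) and the mean ± SD. The Orc5 points of the light mice, 13.7 to 19.2, all lie below those of the dark mice, 26.6 to 35.6, while the groups overlap for most other genes.

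Mean tail lengths after light were tested by limma on genes with 50 tags or more in all 8 libraries, which left Orc6 alone of the 45 genes. Its tail differed by 0.05 ± 6.68 nt (SE; 86.7 ± 12.7 nt in the dark and 86.8 ± 4.28 nt in the light, SD, n = 4 each; limma adjusted p of 0.999), while 0.231% of 4321 genes lengthened and 0 shortened. With an SE of 6.68 nt, a change of that size, or one well above it, could go undetected. Orc5 tails were 96.6 ± 4.87 nt in the dark and 84.8 ± 6.36 nt in the light, but from too few tags to enter the test. With a minimum of 20 tags, 7 genes were tested and 0 called, the smallest limma p before adjustment being 0.0699.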

How the data were processed

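The 45 genes and all lists, alternatives included, were chosen with earlier results of these data known. The submitters' processing notes name mm10, STAR 2.4.2 and bedtools. RNA-seq and RPF tables held read counts per gene deposited by the authors, with the first 50 nt of each reading frame left out, beside their RPM and RPKM values. Tail tables held tag counts and the authors' tail lengths in nt, means in all libraries but the hippocampal ones, which held medians. Rows other than genes (1.41% to 19% of tags) were left out. The RPF libraries of the miR-1 and miR-155 cultures, 2 of 44 samples, could not be assigned from the labels and were not used.

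Ratios were computed in Python 3.11.15 from counts over the total on genes, with 0 counts set to a floor of 3 in lower bounds. TE was taken from the deposited RPM values, as a log2 ratio, with the authors' own deposited log2 TE as an alternative. Levels between genes were compared by deposited RPKM only. Visual cortex tags were tested with edgeR 4.0.16 (TMM, filterByExpr) and tails with limma 3.58.1 in R 4.3.3, with Benjamini-Hochberg adjustment over all genes and a threshold of 0.05. Both were checked on simulated data. Named genes were the 3 members of each role with most RNA-seq reads over both hippocampi, members called against the others in hippocampus (none were), members called or with the lowest p in the light tests, and the 3 highest and lowest for TE and tail, while others were added after their values were seen. Visual cortex replicates were separate mice, and their counts per gene differed by more than sampling noise.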

Additional observations from a re-analysis of the deposited data

Results flagged for a closer look

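The mean tail length of Ccnd1 in visual cortex was 85.2 nt in replicate 4 of the light mice, whereas the other 3 light mice stood at 97.3, 95.7 and 96.6 nt, and this distance from the rest exceeded Dixon's 95% criterion. The median gene stood at 81.6 nt in that library, and at 83.3, 94.1 and 97.8 nt in light replicates 1, 2 and 3. Light replicates 1 and 2 held 42 and 41 Ccnd1 tags, under the minimum of 50 used for tails elsewhere. The part of these library differences was not tested. The criterion was applied to 42 groups of 4 mice, and chance passes about 1 in 20 such groups.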

How the results depend on the processing

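Of 276 combinations of a main result with another setting, 203 stayed within 1.5 times the reported count, or within the interval of a reported share, and 73 moved. Counts were kept per direction, and which direction held more genes turned, for example, for BDNF with the GFP reference and for KCl 10 min with RPFs. Counts below are of the 45 genes. Shares over all genes were taken at the main 2-fold setting only. Counts at other thresholds, filters or scalings therefore have no share to be read against. With a 1.5-fold threshold, the genes lower in embryonic RPFs were 1, in cortex over DIV14 culture RPFs 1 was higher, in cortex over hippocampus RPFs 5 were lower, at DIV10 over DIV14 28 were higher in RPFs and 4 in RNA-seq, with KCl 10 min 3 were lower and with miR-155 1 was higher. With a 4-fold threshold, cortex over DIV14 gave 14 lower in RNA-seq and 10 in RPFs, cortex over hippocampus 1 lower, DIV10 over DIV14 2 higher in RPFs, BDNF 2 lower, glu/gly 5 lower, KCl 10 min 1 higher and 0 lower, KCl 30 min 0 either way and miR-1 0 lower. With at least 50 reads summed, which tests fewer genes, embryonic PAL-seq tags gave 1 higher, cortex over DIV14 RNA-seq 6 lower, cortex over hippocampus RPFs 7 higher, BDNF 3 lower, glu/gly 3 lower, KCl 1 higher at each time and miR-1 1 lower. Median-ratio scaling gave 1 lower in embryonic tags, 3 higher at DIV10 in RNA-seq and 1 higher with KCl 10 min, and the authors' RPM gave 0 higher and 6 lower with KCl 30 min. The following were chosen after seeing the data. Other DIV14 cultures (BDNF, glu/gly, GFP) in place of the unstimulated one gave 9, 7 and 8 lower in cortex RNA-seq, 1, 3 and 2 higher and 3, 5 and 4 lower in cortex RPFs, and 31, 30 and 33 (RPFs) and 12, 18 and 14 (RNA-seq) higher at DIV10. RNA-seq in place of RPFs gave 2 higher and 1 lower for cortex over hippocampus. RPFs in place of RNA-seq gave 14 lower with BDNF, 15 with glu/gly, 0 higher and 2 lower with KCl 10 min and 0 either way with KCl 30 min. TAIL-seq tags gave 3 lower with glu/gly, 0 either way with KCl at both times and 1 lower with miR-1. The GFP reference gave 1 higher and 0 lower with BDNF and 1 higher and 1 lower with glu/gly. The causes of these moves were not tested. The share of tail values above their library's median was 52.8% (28 of 53) at the minimum of 50 tags, 51.5% at 20 tags and 84.6% (11 of 13) at 100 tags. Each value is 1 gene in 1 library, so a gene counts once per library. At 50 tags, Orc6 entered from 5 cultures and 8 visual cortex libraries, and Ccnd1 from 8 and 3. These shares therefore do not count separate genes. On the gene strand alone, CCAAT was in 50% of the genes with a window. A TE change at 30 RPM and light tails at 100 tags gave no value for these genes.

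In visual cortex, same-numbered dark and light mice did not deviate together (correlations of -0.20 to 0.03 for tags and -0.11 to 0.04 for tails), so they share a number only. The replicate block gave 0 of the genes lower (Orc5 log2 -0.86, edgeR adjusted p 0.0811) and 103 higher and 10 lower over all genes. Leaving out 1 mouse gave 0 to 1 of the genes lower. DESeq2 kept Orc5 (adjusted p 0.0479). Without the filter, 162 genes were higher and 30 lower over all genes. The count of lengthened tails over all genes, 10 (170 at an unadjusted p under 0.05), was 1 on a log2 scale, 1 with the block and 1 to 21 without 1 mouse. Depth limits the culture comparisons, the smallest RNA-seq library holding 448022 reads: counts of 3 or fewer in both libraries gave no ratio.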
